A study of Mus musculus with 6 samples.

Results

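Adipokines are proteins that fat cells secrete, and they were followed here in skeletal muscle together with other genes that mark the mature fat cell. The 10 genes were taken by symbol from the deposited expression table, and all 10 were among its 13363 listed genes. They were the secreted adiponectin (Adipoq), resistin (Retn), leptin (Lep) and adipsin (Cfd), the lipid droplet genes Plin1, Cidec and Lgals12, and Pck1, Pparg and Nnat. RNA sequencing had been made of the gastrocnemius, a calf muscle, in 3 samples labelled C26 and 3 labelled control. The mice were male Balb/c animals, young when bought according to the study's methods. C26 mice carried a subcutaneous tumor in the right flank, grown from cells of the mouse colon adenocarcinoma line C26, a model of cancer wasting. Control mice carried no tumor, and no genetic change was described for either group. The model is a single transplanted tumor line. Values are FPKM, sequenced fragments per kilobase of transcript, scaled to the total of the sample, so levels of different genes can be set side by side.

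White fat cells store triglyceride in a single large droplet. PPARγ, the product of Pparg, and C/EBPα, the product of Cebpa, are the transcription factors that drive their formation and keep many of their genes on. Perilipin 1, the product of Plin1, coats the droplet and controls the access of lipases to it, and CIDEC enlarges droplets by passing lipid from one to another. Adiponectin raises insulin sensitivity, leptin signals fat stores to the brain, resistin is made by fat cells in mice, and adipsin is factor D, a protease of the alternative complement pathway. Skeletal muscle contains fat cells between its fibers and bundles.

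The genes lie apart in the genome (RefSeq, GRCm38.p6), with Adipoq at chr16:23146536-23157968, Retn at chr8:3655770-3659818, Lep at chr6:29060221-29073876, Cfd at chr10:79890853-79892655, Nnat at chr2:157560078-157562525, Pck1 at chr2:173153073-173159274 and Pparg at chr6:115360879-115490404, all on the plus strand, and Plin1 at chr7:79721164-79732904, Cidec at chr6:113424634-113435760 and Lgals12 at chr19:7596656-7607233 on the minus strand. The promoters of the 10 genes were read from RefSeq on GRCm38.p6 to show what the genes share in sequence. The table held 12 promoters for 9 of the 10 genes, and Lgals12 was not among these. They are printed for Adipoq, Lep, Plin1 and the third of 3 Pparg starts, which hold most of the matches found. Each run is the 250 bases before the start site, 5′ to 3′ on the gene's strand. Capitals mark matches to AGGTCA (the core of nuclear receptor sites), TTGCNNAA (a C/EBP-like motif) or CCAAT, each searched on both strands, or to TATAA on the gene's strand. The stretches lie at chr16:23146286-23146535 (plus strand), chr6:29059971-29060220 (plus strand), chr7:79732777-79733026 (minus strand) and chr6:115421816-115422065 (plus strand).
Adipoq: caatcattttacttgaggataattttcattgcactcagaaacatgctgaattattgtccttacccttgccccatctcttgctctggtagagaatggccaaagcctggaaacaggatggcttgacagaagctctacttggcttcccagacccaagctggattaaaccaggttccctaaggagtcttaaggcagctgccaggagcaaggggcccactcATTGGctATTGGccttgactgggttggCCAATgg
Lep: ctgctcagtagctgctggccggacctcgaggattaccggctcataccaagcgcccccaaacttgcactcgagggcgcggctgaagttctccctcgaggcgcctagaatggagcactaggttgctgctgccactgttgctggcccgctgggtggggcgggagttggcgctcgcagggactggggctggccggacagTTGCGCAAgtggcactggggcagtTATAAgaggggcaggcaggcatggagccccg
Plin1: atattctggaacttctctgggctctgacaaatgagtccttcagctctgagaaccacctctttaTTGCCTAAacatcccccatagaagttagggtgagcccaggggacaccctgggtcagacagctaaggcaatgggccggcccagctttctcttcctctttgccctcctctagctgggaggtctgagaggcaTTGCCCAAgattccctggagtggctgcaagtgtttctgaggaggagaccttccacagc
Pparg: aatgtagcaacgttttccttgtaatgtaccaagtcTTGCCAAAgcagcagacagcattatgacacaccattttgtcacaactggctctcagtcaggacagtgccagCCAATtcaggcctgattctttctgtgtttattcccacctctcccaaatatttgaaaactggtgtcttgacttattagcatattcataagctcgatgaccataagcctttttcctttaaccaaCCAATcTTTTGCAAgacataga

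Positions count back from the start site. In the Lep promoter, TTGCGCAA began at position -55 and TATAA at -31. The Plin1 promoter held TTGCCTAA at -187 and TTGCCCAA at -58. The Adipoq promoter held CCAAT on the plus strand at -7 and on the minus strand at -34 and -27. The Pparg promoter shown held TTGCNNAA at -215 and, on the minus strand, at -16, and CCAAT at -144 and -22. The windows searched, the printed bases and the first 50 of the transcript, were the same for all genes. Among all 32851 promoters, TTGCNNAA was in 10.8%, CCAAT in 37.4%, TATAA in 17.5% and AGGTCA in 16.3%. The C/EBP-like motif was found for 4 genes (Cidec, Lep, Plin1 and Pparg), CCAAT for 2 (Adipoq and Pparg), TATAA for 2 (Lep and Pparg) and AGGTCA for Pparg alone, at the other 2 starts. The DR1 element, a repeat of AGGTCA with 1 base between, was in 0.0396% of all promoters and in 0 of the 12. None of these motifs was in the Retn, Cfd, Nnat or Pck1 window, which says only that these letters are not there.

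Some facts of the whole dataset bear on these genes. Depth, estimated from the steps between low FPKM values, was about 14100000 to 19600000 reads per muscle, with the weakest signal for C26 replicate 1. Control replicate 3 stood apart. The B cell genes Cd79b and Fcer2a were at 134.43 and 77.32 FPKM there and at most 0.82 FPKM in the other 5 muscles, and the T cell gene Cd4 was at 10.54 FPKM against at most 0.1 FPKM. It was also the control with the lowest value of all 10 genes. C26 replicate 3 was the C26 muscle with the lowest value of 9 of the 10. Across all genes, the median difference of these muscles from the others of their group was -0.05 and -0.01 on the log2 scale, against -3.09 and -1.24 for the 10 genes. Counts of calls are given with and without muscles left out in turn.

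The fat cell genes were far lower in C26 muscle. Of the 10 genes, 9 were lower with an adjusted p under 0.05 and a fold above 4 (limma with Benjamini-Hochberg adjustment over all genes), and the exception was Pparg. Over all genes, 14.5% were called lower and 1.73% met both criteria. An ordinary linear model called 1 of the 10, and with 1 muscle left out the count was 10 without control 3, 5 without C26 replicate 3, 2 without control 1 and 1 in each of the other fits. The median log2 fold change (C26 minus control, on the scale of log2 of scaled TPM + 1) was -4.04 for the 10 genes and -0.05 for all genes. The ratio of the mean FPKM in controls to that in C26 muscle ran from 6.11 for Pparg to 193.5 for Lep, with a median of 53.4. The amount of fat tissue in a sample, whatever its source, and the RNA per fat cell cannot be told apart in whole muscle. The labels do not state that the samples came from separate animals, so p-values measure the spread between these samples.

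**Figure D1:**
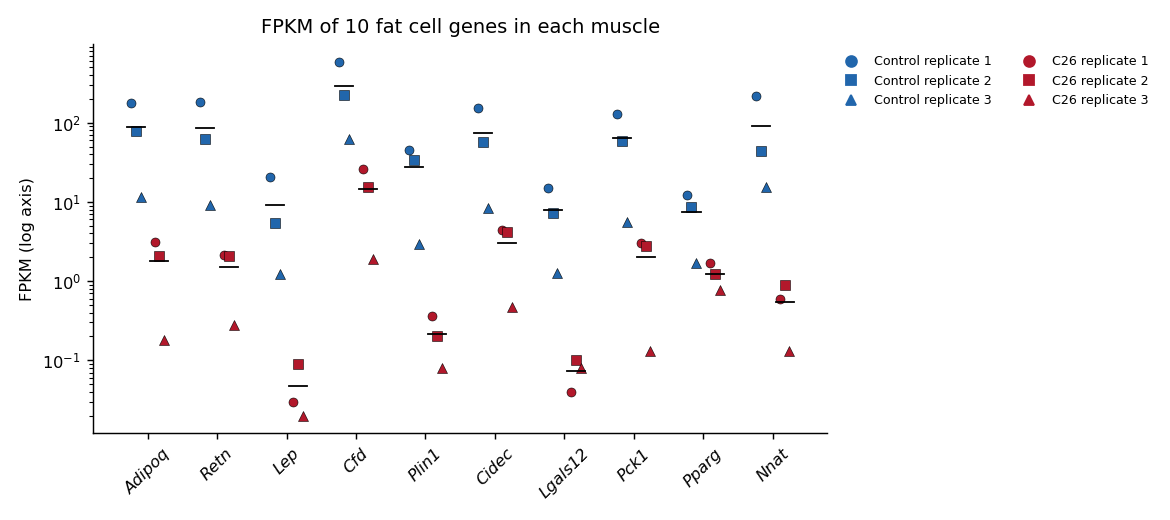
FPKM (log axis) of the 10 genes in each muscle, with blue points for 3 control and red points for 3 C26 muscles, a shape for each replicate number, and bars for group means. Control 1 is the highest and control 3 the lowest control for every gene, and Pparg is the gene whose groups meet.

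In control muscle the mean level was highest for Cfd, at 293 ± 271 FPKM (SD, n = 3), and then for Nnat at 91.8 ± 109, Adipoq at 89.1 ± 82.9, Retn at 85.5 ± 89.8, Cidec at 73.5 ± 74.8 and Pck1 at 64.0 ± 60.9 FPKM. Plin1 followed at 27.3 ± 21.9, Lep at 9.03 ± 10.1, Lgals12 at 7.82 ± 6.88 and Pparg at 7.48 ± 5.32 FPKM. Each neighbouring pair in this order differed by less than the larger SD of the pair. In C26 muscle the order was Cfd at 14.4 ± 12.1, Cidec at 3.05 ± 2.23, Pck1 at 1.99 ± 1.62, and Adipoq at 1.78 ± 1.48 FPKM. Pparg was at 1.22 ± 0.445 FPKM, with Retn between Adipoq and Pparg, and the others were below 1 FPKM.

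The secreted genes were led by adipsin. Cfd was at 591.17, 227.13 and 61.75 FPKM in controls 1 to 3 and at 26.03, 15.24 and 1.92 FPKM in C26 muscles 1 to 3. The lowest control was 2.37 times the highest C26 value, so the groups did not overlap. The log2 fold change of Cfd was -4.12 (SE 1.10, adjusted p = 0.0309 by limma).

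Adipoq, which encodes the plasma hormone adiponectin, was at 176.42, 79.29 and 11.54 FPKM in controls and at 3.11, 2.06 and 0.18 FPKM in C26 muscles. All 3 controls lay above all C26 muscles, although control 3 was 15.3 times below control 1. The log2 fold change of Adipoq was -4.66 (SE 1.07, adjusted p = 0.0196 by limma), the third lowest of all genes on this scale. The order depends on the added constant, since with 0.1 in place of 1 the values of Nnat (-6.55), Plin1 (-5.88) and Lep (-5.54) lay below that of Adipoq (-5.34). Retn, resistin, was at 184.51, 62.72 and 9.26 FPKM in controls and at 2.13, 2.1 and 0.28 FPKM in C26 muscles. Its log2 fold change was -4.55 (SE 1.08, adjusted p = 0.0215 by limma), and its groups did not overlap. Adipoq and Retn kept close to each other within a muscle. Their FPKM ratio was 0.956, 1.26 and 1.25 in controls and 1.46, 0.981 and 0.643 in C26 muscles.

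Lep, leptin, was the least abundant adipokine. It was at 20.45, 5.4 and 1.24 FPKM in controls and at 0.03, 0.09 and 0.02 FPKM in C26 muscles, a fall to almost no reads. At the estimated depths these C26 values stand for about 1.89, 4.70 and 0.904 reads, against 1103, 294 and 56.1 in controls. The log2 fold change of Lep was -3.16 (SE 0.80, adjusted p = 0.0266 by limma), and the added 1 makes this smaller than its ratio of means, 193.5.

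The lipid droplet genes fell as well. Plin1 was at 45.35, 33.58 and 2.93 FPKM in controls and at 0.36, 0.2 and 0.08 FPKM in C26 muscles. Every control lay above every C26 muscle, by 8.14 times at the closest. Its log2 fold change was -4.34 (SE 0.95, adjusted p = 0.0171 by limma). Cidec was at 155.15, 57.02 and 8.29 FPKM in controls and at 4.45, 4.22 and 0.47 FPKM in C26 muscles. Its groups were closer, with the lowest control 1.86 times the highest C26 muscle, and its log2 fold change was -3.69 (SE 1.13, adjusted p = 0.0463 by limma). Lgals12, galectin-12, a droplet-associated lectin of fat cells, was at 14.99, 7.19 and 1.27 FPKM in controls and at 0.04, 0.1 and 0.08 FPKM in C26 muscles. About 2.12, 4.40 and 3.05 reads lie behind these C26 values. Its log2 fold change was -3.08 (SE 0.72, adjusted p = 0.0207 by limma).

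Pck1, the cytosolic phosphoenolpyruvate carboxykinase, makes the glycerol backbone of triglyceride in fat cells. It was at 127.21, 59.04 and 5.62 FPKM in controls and at 3.07, 2.76 and 0.13 FPKM in C26 muscles. Its lowest control was 1.83 times its highest C26 muscle, and its log2 fold change was -3.97 (SE 1.21, adjusted p = 0.0460 by limma). Control 3 and C26 replicate 3 again had the lowest values of their groups. Nnat, an imprinted gene for a small membrane protein, had the lowest log2 fold change of the 10 and the second lowest of all genes on the log2(TPM + 1) scale, while Lep had a higher ratio of means. It was at 216.42, 43.74 and 15.37 FPKM in controls and at 0.6, 0.88 and 0.13 FPKM in C26 muscles. The lowest control was 17.5 times the highest C26 value, the widest gap of the 10. Its log2 fold change was -5.47 (SE 0.90, adjusted p = 0.0081 by limma). Nnat lies within the span of Blcap on the opposite strand. The exons of the genes do not overlap, although an opposite-strand microRNA model overlaps an Nnat exon, and whether reads were counted by strand was not stated. Blcap itself was at 22.02, 18.75 and 11.96 FPKM in controls and at 16.82, 13.66 and 14.09 FPKM in C26 muscles, with an adjusted p of 0.977 by limma.

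Pparg, the master regulator of fat cell formation, did not pass the test. It was at 12.12, 8.65 and 1.67 FPKM in controls and at 1.67, 1.22 and 0.78 FPKM in C26 muscles. Control 3 equalled C26 replicate 1, so the groups met. An antisense gene model lies over the Pparg locus without sharing its exons. The log2 fold change of Pparg was -1.69 (SE 0.64, 95% interval -3.24 to -0.15, adjusted p = 0.0842 by limma), a fitted fold of 3.23, below the criterion of 4. The called gene nearest to that criterion was Lgals12, with a fitted fold of 8.46. Without control 3, Pparg was lower, by -2.47 (adjusted p = 0.0047 by limma).

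**Figure D2:**
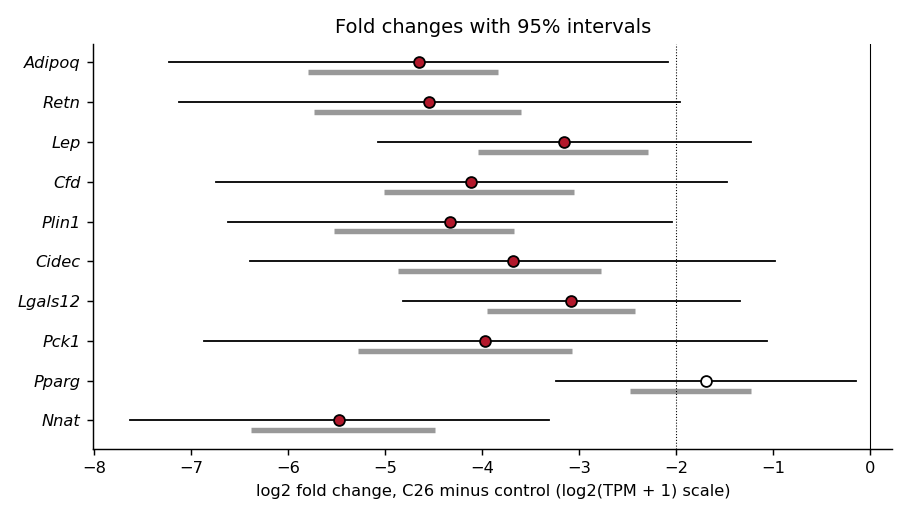
Log2 fold changes (C26 minus control) of the 10 genes, with points for the estimates, red where the adjusted p is under 0.05, black lines for 95% intervals and grey bars for the range when each muscle is left out in turn. The dotted line is the 4-fold criterion. Nnat has the lowest value, -5.47, and Pparg the highest, -1.69.

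By their median, the 10 genes varied far more between muscles of a group than genes in general. The median SD of the log2 values in controls was 1.97 for the 10 genes and 0.206 for all genes, and in C26 muscles it was 0.726 and 0.214. Among the 10 genes the SD in C26 muscles ran from 0.0686 to 1.75, so not every gene varied more there. The ratio of the highest to the lowest control ran from 7.26 to 22.6, with a median of 15.4. In C26 muscles it ran from 2.14 to 23.6, with a median of 7.19. The summed FPKM of the 10 genes was 1544, 584 and 119 in controls and 41.5, 28.9 and 4.07 in C26 muscles. The calls changed with the muscles in the fit. Without control 3, all 10 genes were called lower, with a median log2 fold change of -5.15, and 14.7% of all genes were. Without C26 replicate 3, 5 were, with a median of -3.12, and 16.2% of all genes were. Without control 1, 2 were, with a median of -3.22, and 5.42% of all genes were. Without control 2, C26 replicate 1 or C26 replicate 2, 1 gene was called in each fit, when 10.5%, 5.01% and 7.08% of all genes were called lower. Nnat kept its call in all 6 fits, with an adjusted p of at most 0.0373, and the other 8 called genes each lost theirs in 4 or 5 of the 6.

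Without overlap between the groups, 9 of the 10 genes were lower, as were 26.5% of all genes. The genes differed in how much each contributed to the sum. Cfd made up 38.3%, 38.9% and 51.9% of the summed FPKM of the 10 genes in controls and 62.7%, 52.8% and 47.2% in C26 muscles, which overlapped (exact permutation test over samples, p = 0.2). The share of Nnat was lower without overlap, at 14.0%, 7.49% and 12.9% in controls and 1.45%, 3.05% and 3.19% in C26 muscles (exact permutation test, p = 0.1, the smallest that 3 against 3 allows). Shares of Adipoq, Retn, Lep and Plin1 were also lower without overlap (exact permutation test, p = 0.1 each). The share of Pparg was higher, at 0.785%, 1.48% and 1.40% in controls and 4.03%, 4.23% and 19.2% in C26 muscles, and that of Cidec too (exact permutation test, p = 0.1 each). Shares of Lgals12 and Pck1 overlapped. Since shares sum to a whole, a lower share of one gene raises those of others.

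**Figure D3:**
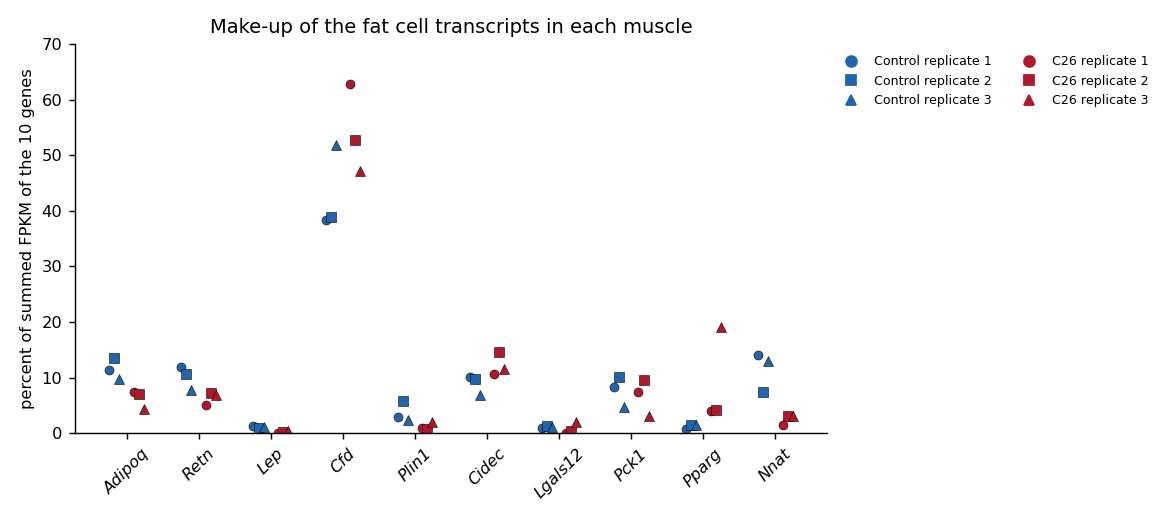
Percent of the summed FPKM of the 10 genes that each gene makes up, in blue for 3 control and red for 3 C26 muscles, a shape for each replicate number. Cfd has the largest share in every muscle, 38.3% to 62.7%, and the Nnat shares of the groups do not overlap.

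The 10 genes were next set against other fat cell genes of the same muscle. Of 12 defining markers outside the 10, 11 were listed, and 6 of these were lower, 1 higher and 4 not called by limma, with a median log2 fold change of -2.53. The lower ones numbered 3 under quantile normalization, 0 in an ordinary linear model, 10 without control 3, 4 without C26 replicate 3 and 0 or 1 without another muscle. Their mean log2 level was 6.80, 6.30 and 4.21 in controls and 3.69, 3.53 and 3.82 in C26 muscles, against 6.96, 5.88 and 3.30 and 2.03, 1.85 and 0.66 for the 10 genes. Some of these markers, such as Plin4, Car3 and Lipe, are also expressed in muscle fibers. Relative to this mean, the 10 genes had a median difference of -1.95 on the log2 scale, and -1.57 with Plin4, which was higher in C26 muscle, left out of the reference. It was -1.01 without C26 replicate 3 and -2.28 without control 3. Nnat differed most, by -3.38, followed by Adipoq (-2.57), Retn (-2.46) and Plin1 (-2.25). Adipoq, Retn, Lep, Cfd, Plin1, Lgals12 and Nnat were lower without overlap (exact permutation test, p = 0.1 each, the smallest possible). Cidec (-1.60, p = 0.2), Pck1 (-1.88, p = 0.3) and Pparg (0.40, p = 0.3) overlapped by the same exact permutation test.

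**Figure D4:**
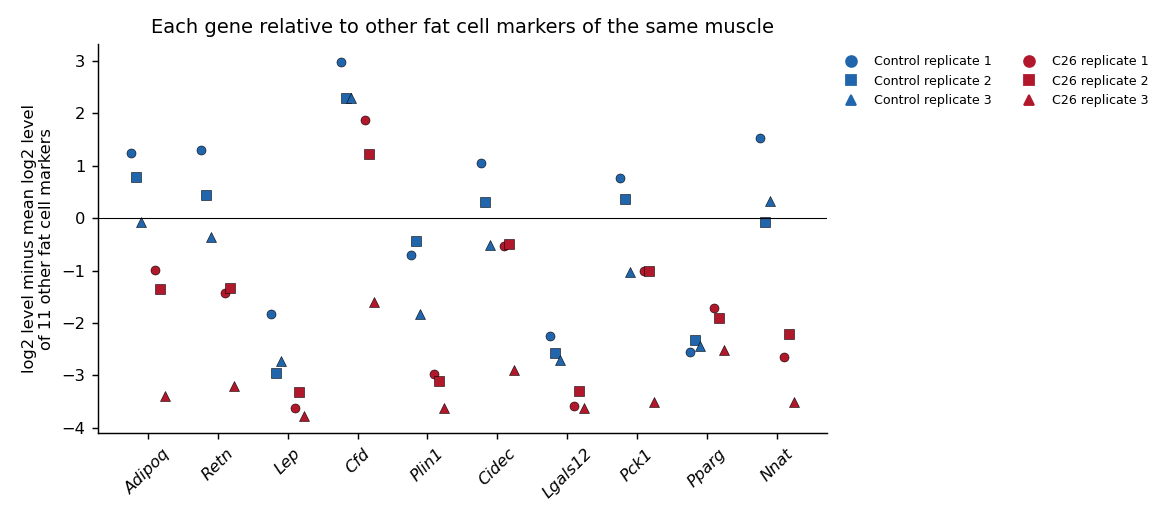
Log2 level of each gene minus the mean log2 level of 11 other fat cell markers in the same muscle, blue for 3 control and red for 3 C26 muscles, a shape for each replicate number. For 7 genes the C26 points lie below all control points, and for Pparg they do not.

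Of 44 other fat cell genes, 40 were listed. By limma, 19 of these were lower, 4 higher and 17 not called, with a median log2 fold change of -1.61, and 19.4% of all genes were called higher. The lowered genes with the largest changes were Scd1, a desaturase of fatty acid synthesis (-6.86), Fasn, the fatty acid synthase (-4.43), Rbp4, a retinol carrier secreted by fat cells and liver (-3.87), Sncg (-3.63) and G0s2, an inhibitor of the main triglyceride lipase (-3.07). The 4 higher genes, named after their values were seen, were Pnpla2, that lipase (2.40), Lpin1, a phosphatidate phosphatase (2.14), Plin4 (1.77) and Slc2a4, the insulin-dependent glucose transporter (0.54). Their mean levels in C26 muscle were 527, 76.3, 214 and 321 FPKM, against 1.78 for Adipoq and 0.213 for Plin1. Which cells of the muscle these transcripts came from was not tested, so they cannot be read as fat cell transcripts alone. Pnpla2 was at 134.77, 148.54 and 73.49 FPKM in controls and at 579.01, 584.88 and 415.67 FPKM in C26 muscles. Fabp4, the fat cell fatty acid carrier, did not pass the test and was at 2957.41, 1590.11 and 443.04 FPKM in controls and at 350.22, 256.25 and 247.99 FPKM in C26 muscles. Without control 3, 28 of the 40 were lower, without C26 replicate 3, 14 were, and without another muscle 5 to 10 were. The call of Slc2a4 (adjusted p = 0.0409 by limma) was lost in 5 of the 6 fits without a muscle, and 3 genes, not 4, were called higher under each other scaling. Among the lowered genes named, Fasn and Sncg each lost their calls in 3 of these 6 fits and Rbp4 in 1. Scd1 and G0s2 kept theirs in all 6.

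Relatives of the 10 genes did not follow one course. Of 24 paralogs and neighbours, 21 were listed, with 9 lower, 4 higher and 8 not called by limma. Unlike Plin1, the perilipins Plin3, Plin4 and Plin5 were higher, by 1.93, 1.77 and 2.60 on the log2 scale, while Plin2 was not called. Plin2 was at 43.64, 40.56 and 14.77 FPKM in controls and at 36.24, 33.91 and 22.8 FPKM in C26 muscles, with an adjusted p of 0.699. The resistin relative Retnla fell by 3.16, the galectins Lgals1 and Lgals9 fell by 1.75 and 1.97, and Lgals8 rose by 0.91, while Pck2, the mitochondrial isoform of Pck1, had a difference of -0.04 that was not called. The CIDE relative Cidea was at 3.99, 31.07 and 2.03 FPKM in controls and at 0.37, 0.28 and 0.65 FPKM in C26 muscles and was not called. C1qtnf1, C1qtnf2, C1qtnf6 and C1qtnf12, secreted relatives of adiponectin, fell by 1.08, 1.47, 1.41 and 1.93, C1qtnf5 was also called lower, a call lost in 4 of the 6 fits without a muscle, and C1qtnf3, C1qtnf7 and C1qtnf9 were not called. With each muscle left out, 5 to 9 of the 21 were lower and 3 or 4 higher, and an ordinary linear model called 4 lower and 2 higher.

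Receptors for the secreted products were mostly not called. Of 14 receptors and partners, 2 were lower, 2 higher and 10 not called by limma, with a median log2 fold change of -0.01. Adipor1 and Adipor2, the adiponectin receptors, were at 97.6, 99.06 and 74.0 and at 37.56, 41.15 and 22.84 FPKM in controls, and at 110.49, 108.39 and 91.81 and at 58.33, 56.71 and 43.69 FPKM in C26 muscles, and neither was called. Lepr, the leptin receptor, was at most 0.58 FPKM in any muscle. Cdh13, a cell surface binding partner of adiponectin, fell by 1.38, and Cfb, the complement factor that adipsin cuts, fell by 1.96. Appl2, an adaptor that binds adiponectin receptors, rose by 1.28. The calls of Cdh13 (adjusted p = 0.0407 by limma) and Cfb (adjusted p = 0.0382) were each lost in 5 of the 6 fits without a muscle, and that of Appl2 in none. Of the 14, 0 were lower without control 3, 1 without C26 replicate 3 and at most 1 without another muscle, and 2 to 5 were higher, with 5 without C26 replicate 3.

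Regulators of fat cell genes moved in both directions. Of 30, 29 were listed, with 6 lower, 10 higher and 13 not called by limma, and a median of 0.23 that turned to -0.04 under a scaling without the 20 most abundant genes, where 8 were lower and 6 higher. An ordinary linear model called 1 lower and 8 higher. Cebpa fell by 2.74, from 40.8, 26.45 and 6.53 FPKM in controls to 2.5, 2.71 and 1.18 FPKM in C26 muscles, and Rxrg, a partner receptor of PPARγ, fell by 2.14. Cebpd, Klf15 and Cebpb rose by 4.38, 2.70 and 2.06. Cebpd, which acts early in fat cell formation, was at 10.72, 6.56 and 14.78 FPKM in controls and at 230.15, 183.52 and 170.86 FPKM in C26 muscles. The call of Cebpa was lost in 5 and that of Rxrg in 2 of the 6 fits without a muscle, and those of Cebpd, Klf15 and Cebpb in none. With each muscle left out, 1 to 8 of the 29 were lower and 5 to 10 higher.

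**Figure D5:**
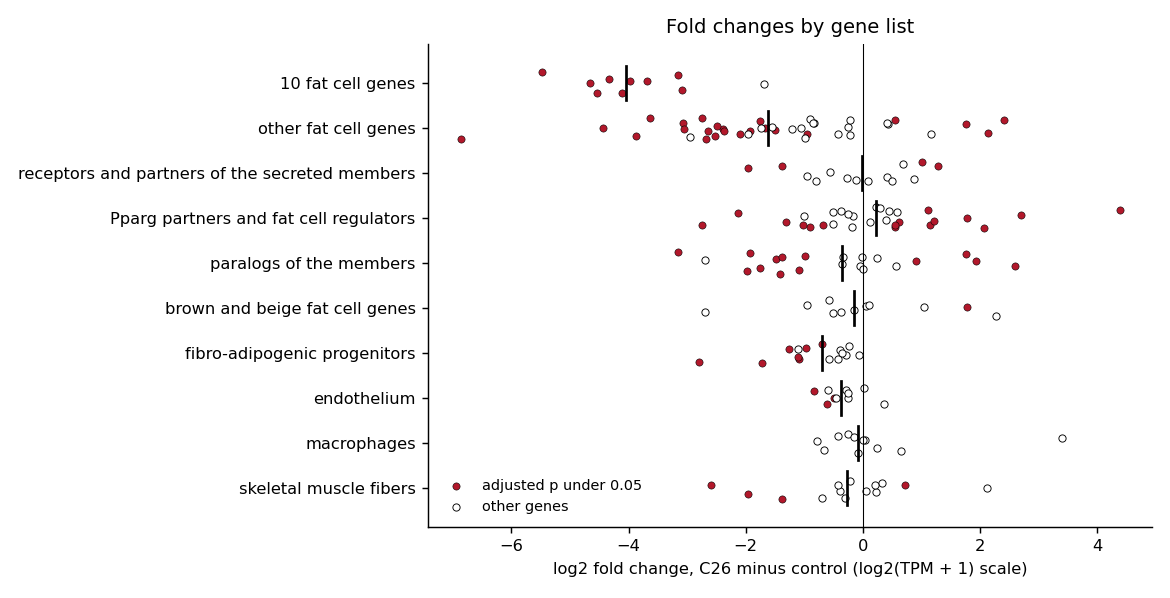
Log2 fold changes (C26 minus control) of the listed genes of each gene list, with filled red points where the adjusted p is under 0.05, open points for other genes and black bars for list medians. The 10 fat cell genes have a median of -4.04 and the other fat cell genes of -1.61, while the regulators lie on both sides of 0.

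Genes of other cell types were read beside these. Of 15 genes of fibro-adipogenic progenitors, the connective tissue cells that can form fat cells, 7 were lower and 0 higher by limma (0 higher also at an unadjusted p under 0.05), against 2 lower and 0 higher in an ordinary linear model and 10 lower without the 20 most abundant genes, with a median of -0.70, and the sum of their FPKM was 791.13 to 1274.94 in controls and 436.84 to 594.93 in C26 muscles. Col15a1 fell by 2.80 and Lum by 1.72, a call that was lost for Lum in 4 and for Col15a1 in 0 of the 6 fits without a muscle. Of 10 endothelial genes 3 were lower and 0 higher by limma (again 0 higher at an unadjusted p under 0.05), against 0 in either direction in an ordinary linear model and 5 lower without the 20 most abundant genes, with summed FPKM of 109.61 to 171.02 in controls and 90.15 to 94.73 in C26 muscles. Of 11 macrophage genes 0 were called by limma (3 at an unadjusted p under 0.05 and 0 by an ordinary linear model), and their sum was 68.21 to 261.81 FPKM in controls and 62.39 to 328.16 FPKM in C26 muscles. Of 8 Schwann cell genes, 8 had negative log2 fold changes with a median of -0.70, and 2 were lower and 0 higher by limma (3 lower and 0 higher at an unadjusted p under 0.05, and 0 in an ordinary linear model), with summed FPKM of 44.24 to 125.13 in controls and 21.9 to 46.85 in C26 muscles. With each muscle left out, 0 to 3 of these were lower. Of 14 muscle fiber genes 3 were lower and 1 higher, against 7 and 1 with FPKM as deposited, 7 and 0 without the 20 most abundant genes 3 and 3 under quantile normalization and 0 and 1 in an ordinary linear model. With each muscle left out, 2 to 7 of the progenitor genes, 0 to 5 of the endothelial and 0 to 4 of the muscle fiber genes were lower, and 0 of the macrophage genes were lower and at most 2 higher. The file lists only values above 0, so it cannot show a marker at 0. The part of these cell types in the fat cell result was not tested.

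Genes outside the 10 were ranked by the distance between their log2 profiles over the 6 muscles, each centred on its own mean, and the mean profile of the 10. The nearest were Cyp2e1 (0.680), Cdo1 (0.833), Rbp4 (1.01), Ifi27l2a (1.12), Aoc3 (1.25), Sncg (1.25), Trarg1 (1.28), Prkar2b (1.36), Mrap (1.39) and Cd1d1 (1.42). The nearest, Cyp2e1, was at 52.6, 38.64 and 6.43 FPKM in controls and at 1.28, 1.4 and 0.33 FPKM in C26 muscles, again highest in control 1 and lowest in control 3 among the controls. Among the 10, Cidec and Pck1 were the closest pair (0.535), then Adipoq and Retn (0.578) and Lep and Lgals12 (0.590), and Nnat and Pparg were the farthest apart (4.85). Nearest to Pparg were Car5b (0.432), Fabp4 (0.545) and Trf (0.606), none of which was called by limma.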

How the data were processed

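RNA of 3 C26 and 3 control gastrocnemius muscles had been sequenced. The deposited values are FPKM per gene, to 2 decimals under Entrez IDs, which the authors made by removing adaptor, low-quality and rRNA reads, aligning single-end reads and estimating expression with RSEM. The study's methods name bowtie2 and GRCm38.p5. The submitters' processing notes name mm9, HISAT2 2.0.4, Bowtie2 2.2.5 and RSEM 1.2.12. The extraction text in the labels names another sample type and kit than the study's methods. The annotation, strand setting and read counts are not given in the sources used here. No columns were left unmapped, and 13327 of 13363 IDs matched a symbol.

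FPKM were rescaled to TPM (sum 1000000), divided by TMM factors (0.903 to 1.08, with 30% of log ratios and 5% of levels trimmed) and transformed as log2(value + 1), which understates changes of low genes. Groups were compared with limma 3.58.1 (R 4.3.3), two-sided, and p-values were adjusted by Benjamini and Hochberg's method across the whole table. A DEG needed an adjusted p under 0.05 together with a fold above 4. Single values were compared with exact two-sided permutation tests over samples, which cannot go below p = 0.1. Depth was estimated with Python 3.11.15 (numpy 2.4.6) from 3087 genes with 1 transcript model and is approximate. The fit and the depth estimate were tested on simulated data. Figures were drawn with matplotlib 3.10.9.

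Named were the 10 genes, up to 5 called genes per list with the largest changes, paralogs by their values, the 10 genes nearest to the mean profile and the 3 nearest to each gene. The genes and lists were chosen with earlier results of these data known. The lists were written from textbook knowledge, and genes on them that were not in the file were not analysed here. Alternatives were another pseudocount, a filter on low values, 3 other scalings, a replicate block, an intensity trend, an ordinary linear model and leaving out each muscle. A scaling without the 20 most abundant genes, a reference without Plin4 and shares of the summed FPKM were chosen after seeing the data. GRCm38.p6 gave names, places and promoters only. One called gene of the receptor and partner list is not reported here.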

Additional observations from a re-analysis of the deposited data

How the results depend on the processing

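The 9 called genes stayed 9 under a pseudocount of 0.1, the low-value filter, FPKM as deposited, the intensity trend, the replicate block and the scaling without the 20 most abundant genes, where 9.25% (replicate block) to 24.0% (without the 20 genes) of all genes were lower, and were 7 under TPM without TMM and under quantile normalization, where Cidec and Pck1 missed the threshold. An ordinary linear model called 1 gene, with 7.18% of all genes lower, and the count ranged from 1 to 10 when each muscle was left out, with 5.01% to 16.2% of all genes lower. The shares of all genes were 13.6% under TPM without TMM and 11.8% under quantile normalization. The counts of these genes, not the shares of all genes, were the same under the DEG criteria. The other fat cell genes called lower, 19, numbered 3 under the ordinary linear model, 16 under the replicate block, 16 to 22 under the other alternatives and 5 to 28 with each muscle left out. The cause was not tested. The median difference from the defining markers lay between -2.72 and -1.01. No direction of the 10 genes reversed, and 35 of 60 fits of single genes with a muscle left out gave a weaker call. The sample titles do not say whether the replicate numbers pair the muscles. Over all genes, the correlations of deviations of same-numbered muscles were -0.04, -0.08 and -0.11, which cannot exclude a pairing for the 10 genes. Of these, replicate 3 was lowest for 10 in controls and for 9 in C26 muscles. With the replicate block, the SE of Cfd fell from 1.10 to 0.176 and that of Lgals12 from 0.722 to 0.641. Over all genes, 1931 were lower and 2590 higher, against 2504 and 1678 with FPKM as deposited and 3212 and 1544 without the 20 most abundant genes, scalings that put the median gene at -0.14 and -0.23 on the log2 scale. No called gene of the lists changed direction under these scalings. Low values rest on a few estimated reads, in C26 replicate 3 about 3.15 for Adipoq, 4.78 for Pck1, at most 4.30 for Retn, 2.10 for Plin1 and at most 2.13 for Nnat.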

Other observations

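Genes of brown and beige fat cells were also read. Of 15 named on that list, 11 were in the file, and 0 were lower and 1 higher by limma with Benjamini-Hochberg adjustment. At an unadjusted p under 0.05, 3 were lower, and an ordinary linear model gave 0 lower. Without a muscle, 0 to 3 were lower, and without the 20 most abundant genes in the scaling 2 were. The higher one was Ppargc1a, a coactivator of mitochondrial genes that muscle fibers also express, at 3.02, 3.55 and 2.47 FPKM in controls and at 10.54, 10.71 and 9.29 FPKM in C26 muscles. Of 12 enzymes of gluconeogenesis and glyceroneogenesis in the file, Pck1 included, 3 were lower, 2 higher and 7 not called, with a median log2 fold change of -0.06, and an ordinary linear model called 0 lower and 1 higher. Gpd1, which makes glycerol phosphate, fell by 2.69 on the log2 scale and Tpi1 by 1.09, while Got1 rose by 2.39 and Fbp2 by 1.76. Of these calls that of Tpi1 was lost in 4, that of Gpd1 in 2 and that of Fbp2 in 1 of the 6 fits without a muscle. Of 15 imprinted genes in the file, Nnat included, 4 were lower and 3 higher, against 6 and 2 with FPKM as deposited and 7 and 1 without the 20 most abundant genes, and 4 to 6 and 0 to 5 with each muscle left out. Ndn, which restrains fat cell formation, fell by 1.95, Cdkn1c by 1.10 and Dlk1, a marker of fat cell precursors, by 0.95, while Peg3 rose by 1.81. Ndn was at 12.16, 7.47 and 8.03 FPKM in controls and at 1.78, 1.08 and 2.02 FPKM in C26 muscles, so unlike the 10 genes it was not lowest in control 3.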
